A study of Homo sapiens with 12 samples.

Results

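The comparison described here is the addition of decitabine to triptolide in DU145, a prostate cancer cell line from a metastasis to the central nervous system. All 3 libraries of cells given both drugs (DACTPL) were set against all 3 libraries of cells given triptolide alone (TPL), which is 6 of the 12 libraries of the study. Both groups received triptolide at 2 nM once a day for 3 days. A drug-free period of 17 days followed, so RNA was taken at 20 days. DACTPL cells had decitabine on the same 3 days, at 33 nM according to the sample characteristics but at 3 nM according to the treatment protocol, so its dose in the combination was not settled. The other 6 libraries were vehicle (Ctrl, DMSO) and decitabine alone at 33 nM (DAC). They were used as a second decitabine contrast, which shares no library with the first. The study's title names the enzyme DCTPP1 as a link between triptolide and the response to nucleoside analogues that inhibit DNA methyltransferases. Of 26341 genes in the deposited count table, 15890 passed the filter on low counts and were tested, and 5761 had no count in any library.

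Decitabine is a deoxycytidine analogue that is phosphorylated by deoxycytidine kinase (DCK), built into DNA during replication and there traps DNA methyltransferases, above all DNMT1. Methylation is then lost over cell divisions, and genes held silent by promoter methylation can be transcribed. Well known examples are the cancer-testis genes and other germline genes, which most somatic cells keep methylated, and imprinted genes. Transcription of silenced repeats can also give double-stranded RNA, which cytosolic sensors such as RIG-I and MDA5 detect, with an interferon response as the outcome. Triptolide binds ERCC3 (XPB), a helicase subunit of the transcription factor TFIIH, and lowers RNA polymerase II transcription. DCTPP1 is a pyrophosphatase that hydrolyses dCTP and modified dCTP analogues. DNA methylation itself was not measured in the libraries analysed here.

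The 6 libraries held 26.4 M to 42.5 M expected counts. TPL replicate 3 stood apart within its group. Its deviations from the mean of all libraries ran with gene length at a Spearman correlation of 0.16, against -0.39 and -0.38 for TPL replicates 1 and 2. The DACTPL libraries gave -0.20, 0.28 and 0.22. Small structural RNAs took 4.43%, 4.55% and 3.39% of the counts of the 3 TPL libraries and 3.05%, 3.39% and 2.89% of those of the DACTPL libraries. The labels do not say that replicates were separate cultures, so the p-values below measure the spread between these libraries, which may be technical. The epithelial keratins KRT8 (means of 674 and 850.2 CPM in TPL and DACTPL, where CPM is the count scaled to library size) and KRT18 (778 and 877 CPM) were abundant. Of 9 blood and macrophage markers, CD163, HBB and HBA1 had no count in the 6 libraries, while CD68, a lysosomal protein, stood at 27.4 to 44.1 CPM and was lower in DACTPL (log2 -0.47, adjusted p = 0.00403, edgeR), and PTPRC (CD45) rose from a mean of 0.161 to 0.625 CPM (adjusted p = 0.00678), a call lost on both TPM scales. PTPRC was too low in TPL to pass the filter there and entered the test through higher groups. LYZ stood at 3.29 to 4.79 CPM and CD14 at 1.76 to 2.46 CPM. The part of other cells in the results was not tested.

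Adding decitabine raised many more genes by a large factor than it lowered. By the edgeR quasi-likelihood test with Benjamini-Hochberg adjustment over all tested genes, 1101 genes were higher in DACTPL (6.93% of those tested) and 570 were lower (3.59%), at an adjusted p below 0.05. Of the rises, 410 were 2-fold or more (2.58% of genes tested) and 176 exceeded 4-fold. Of the falls, 20 were 2-fold or more (0.126%) and 465 were smaller than 1.5-fold. Genes near 0 in TPL could only rise and were tested only through higher groups, so the imbalance is partly fixed by the filter. Among genes called at over 100 CPM in Ctrl, the median log2 changes were 0.28 for rises and -0.28 for falls. In 1090 of the 1101 rises and 563 of the 570 falls the 3 libraries of one group did not overlap the 3 of the other. Over all 15890 tested genes this held for 2362 with DACTPL above and 1931 with DACTPL below. Calls made on the same libraries favour such genes, so the lack of overlap is no further support. The median log2 fold change over all tested genes was 0.01.

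**Figure D1:**
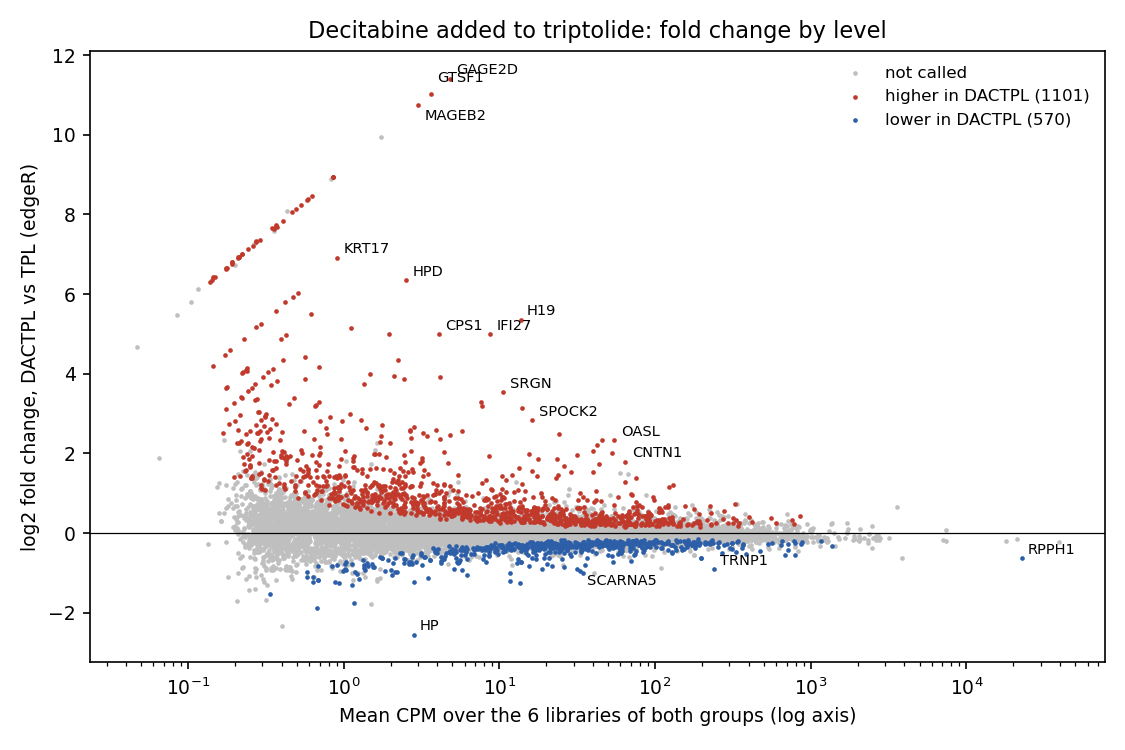
Each point is a tested gene with a count in the 6 libraries, with its mean CPM on a log axis and its edgeR log2 fold change (DACTPL over TPL), red for the 1101 genes called higher and blue for the 570 called lower. The rises beyond log2 4 lie mainly at low mean levels, and the falls form a shallow band that widens at low levels and ends near HP.

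Rises were found at every level of expression in untreated cells. Of 126 tested genes under 0.1 CPM in Ctrl, 108 were higher in DACTPL than in TPL and 0 were lower, though a gene at that level entered the test only through groups in which it was higher. Of 1954 genes between 0.1 and 1 CPM, 227 were higher and 13 lower, and of 3755 between 1 and 10 CPM, 347 and 131. The lowest genes of the 0.1 to 1 CPM class have the same limit, and the median log2 fold change over that class was 0.26. At 10 to 100 CPM the counts were 360 and 333 of 7947, with median log2 changes of 0.38 and -0.30 among those called. Above 100 CPM, 59 genes were higher and 93 lower of 2108. In 20 genes the mean went from under 0.1 CPM in TPL to at least 1 CPM in DACTPL, and 12 of these had no count in any TPL library. Of the 12, GAGE4 (adjusted p = 0.16, edgeR) and MAGEA9 (adjusted p = 0.115) were not called. GAGE12C, GAGE12E and GAGE12G carried the same counts. A change of the same size in the other direction was seen in 0 genes.

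The size of the called sets depended on single libraries. Without TPL replicate 3 the same test called 1622 genes higher and 1663 lower, while without TPL replicate 2 it called 650 and 305, and without DACTPL replicate 2 it called 721 and 260. Without TPL replicate 1 it called 674 and 366, and without DACTPL replicate 3, 815 and 303. Of the 1101 rises, 993 were called again without TPL replicate 3 and 635 without TPL replicate 2. A test on the deposited TPM values (limma on log2(TPM + 1)) called 5551 genes higher and 140 lower, and in it the median over all genes was 0.16. TPM of a library sum to a fixed total, so the share of one entry enters the values of all others. RPPH1, the RNA subunit of RNase P, took 15.6%, 16.6% and 12.8% of all TPM in the TPL libraries and 11.7%, 11.7% and 10.7% in the DACTPL libraries. Its part in the shift was not tested.

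**Figure D2:**
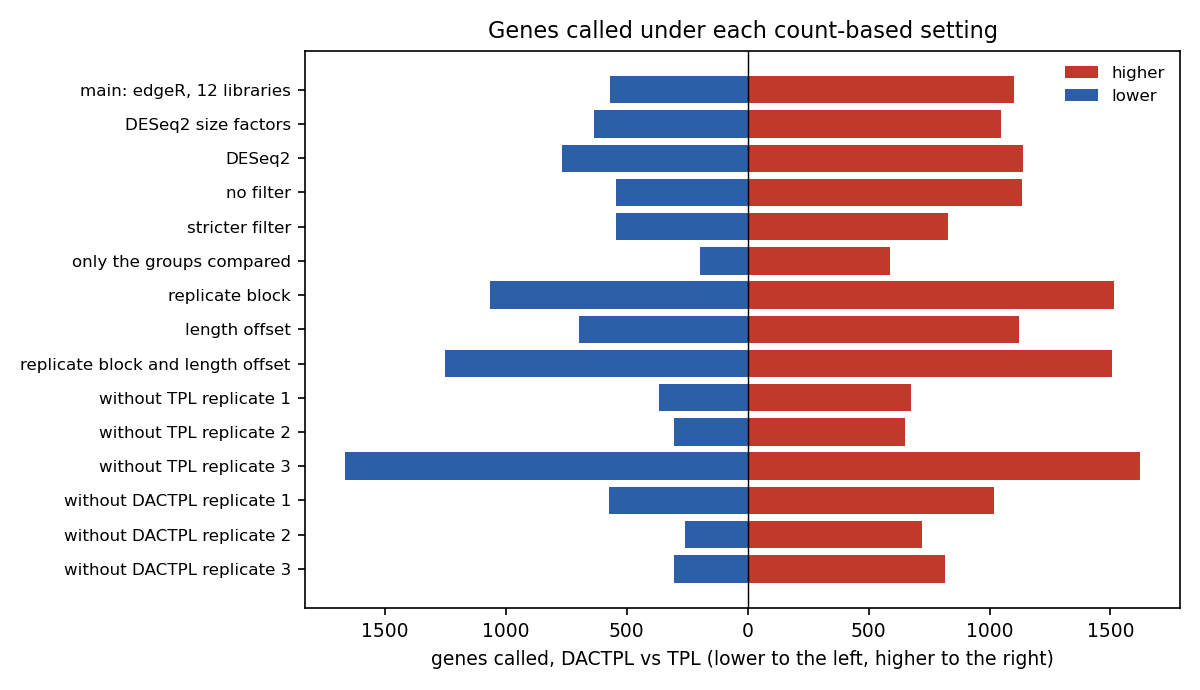
Bars give the number of genes called higher (red, right) and lower (blue, left) in DACTPL against TPL under each setting that starts from counts, with the main fit at the top. With 1 library left out the rises run from 650 to 1622 and the falls from 260 to 1663, the highest of both without TPL replicate 3, and the fit on the 6 libraries alone called 589 and 195.

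Germline genes gave the largest changes. GTSF1, a piRNA pathway factor needed for transposon silencing in the germline, had no count in any TPL library and stood at 8.26, 6.85 and 6.82 CPM in the 3 DACTPL libraries. Against a floor of 3 counts per TPL library it was at least 69.7-fold higher (adjusted p = 7.14e-07, edgeR). MAGEB2, an X-linked cancer-testis antigen of the melanoma antigen family, also had no count in TPL and reached 6.70, 6.29 and 5.02 CPM, at least 57.3-fold higher (adjusted p = 1.86e-06). Every DACTPL library was far above every TPL library for both genes, and both were at 0 in Ctrl as well. Decitabine alone gave nearly the same levels, with DAC means of 8.11 CPM for GTSF1 and 5.94 CPM for MAGEB2.

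The promoters of these genes are shown because CG dinucleotides are the sites at which DNA methyltransferases act. Each is the RefSeq window of GRCh38.p14 from 250 bases before to 50 bases after the annotated start, read along the strand of the gene, with CG in capitals. The median over 27305 such windows was 14 CG. The GTSF1 window holds 10 and lies on the minus strand at chr12:54473553-54473852. The MAGEB2 window holds 21 and lies on the plus strand at chrX:30215313-30215612.
GTSF1: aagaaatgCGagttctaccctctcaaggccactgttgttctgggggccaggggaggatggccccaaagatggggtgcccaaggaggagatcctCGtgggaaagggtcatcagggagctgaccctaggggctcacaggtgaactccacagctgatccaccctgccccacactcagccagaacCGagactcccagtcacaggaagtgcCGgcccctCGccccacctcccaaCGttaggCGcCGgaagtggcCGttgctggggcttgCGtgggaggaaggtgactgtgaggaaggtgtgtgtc
MAGEB2: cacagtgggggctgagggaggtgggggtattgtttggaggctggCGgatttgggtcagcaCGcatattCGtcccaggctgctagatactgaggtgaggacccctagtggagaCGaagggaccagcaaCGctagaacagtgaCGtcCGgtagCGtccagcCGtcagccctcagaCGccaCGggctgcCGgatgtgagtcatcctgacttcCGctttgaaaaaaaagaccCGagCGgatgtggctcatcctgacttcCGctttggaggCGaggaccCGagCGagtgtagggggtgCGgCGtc

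The cancer-testis antigens as a class were largely absent from TPL cells. Of 116 listed genes, 114 were in the table, 35 of them had no count in any of the 6 libraries, and 36 passed the filter. Of the 36, 25 had no count in TPL and entered the test through the decitabine groups, so their count of calls is no evidence of its own. Each TPL library had 6 listed genes with at least 10 counts, while the DACTPL libraries had 33 to 41. GAGE2D had 0 counts in TPL and 10.7, 10.3 and 7.65 CPM in the DACTPL libraries, at least 91.3-fold higher (adjusted p = 4.78e-06). MAGEA1 went from 0 to 1.31, 1.18 and 1.06 CPM (at least 11.3-fold) and MAGEA3 from 0 to 0.98, 1.28 and 0.928 CPM (at least 10.1-fold). The GAGE and MAGEA genes are near-identical copies between which reads can be divided, and GAGE12C, GAGE12E and GAGE12G carried the same counts, so the share of each single copy is uncertain. CTCFL, a paralogue of the insulator protein CTCF that is normally limited to testis, had a low TPL level above 0. It too entered the test through groups in which it was higher, so its call is given as a description. It stood at 0.232, 0.133 and 0.263 CPM in TPL and 1.10, 1.43 and 1.47 CPM in DACTPL, which is 2.65 ± 0.45 on the log2 scale (SE; adjusted p = 0.00225).

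The piRNA pathway silences transposons in germ cells, and 16 of 24 listed members were tested. Of these GTSF1, GPAT2 and TDRD1 had no count in TPL, MAEL had 5 and TDRD9 had 9, so they entered the test through the decitabine groups. The 8 rises and 1 fall called (4 and 1 with a filter at 1 CPM) are therefore given as a description, and nothing is read from their share beside the 6.93% of all genes. TDRD1, a Tudor-domain scaffold of piRNA granules, had no count in TPL and 1.07, 0.996 and 0.704 CPM in DACTPL, at least 8.82-fold higher. GPAT2, an acyltransferase family member that takes part in piRNA production in mouse, had no count in TPL and 1.07, 0.965 and 1.44 CPM in DACTPL, at least 11.1-fold higher. MAEL (Maelstrom), which acts in piRNA-guided silencing, stood at 0.0387, 0.133 and 0 CPM in TPL and 2.22, 2.21 and 2.05 CPM in DACTPL (log2 fold change 5.14 ± 0.44, adjusted p = 9.48e-06). PIWIL2, an Argonaute-family protein that binds piRNAs, rose from a mean of 0.87 to 1.88 CPM, a call that was lost without TPL replicate 1 or DACTPL replicate 2. The abundant member TDRKH, a mitochondrial Tudor protein, fell from 67.2 ± 2.51 to 54.1 ± 0.696 CPM (SD, n = 3; log2 -0.31, adjusted p = 0.00176), a call lost on both TPM scales. Among members that TPL cells transcribed, changes thus went in both directions.

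Genes of meiosis and germ cell development, 25 tested of 47 listed, had the same limit. In TPL, BOLL had 5 counts, SOHLH2 and TEX11 had 7 each, SYCP3 had 8, LIN28B had 11 and SOX30 had 13, and the 10 rises and 0 falls called (3 rises with a filter at 1 CPM) are again a description. DAZL, an RNA-binding protein of germ cells, had no count in TPL and 0.513, 0.56 and 0.384 CPM in DACTPL (at least 4.64-fold). LIN28B, which blocks maturation of let-7 microRNAs, stood at 0.0774, 0.133 and 0.164 CPM in TPL and 1.07, 1.09 and 1.41 CPM in DACTPL (log2 3.19 ± 0.34, adjusted p = 6.17e-05). REC8, a meiotic cohesin subunit, stood at 1.35, 1.2 and 1.51 CPM in TPL and 2.10, 2.68 and 2.82 CPM in DACTPL (log2 0.89, adjusted p = 0.00352). In the DAC vs Ctrl contrast REC8 gave 0.08 (adjusted p = 0.803), but its interaction was not called.

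The long noncoding RNA H19, transcribed from the maternal allele of an imprinted domain shared with IGF2, had one of the smallest p-values of the comparison. It stood at 0.697, 0.399 and 0.854 CPM in the TPL libraries and at 27.2, 26.5 and 26.7 CPM in the DACTPL libraries, 41.1-fold higher (log2 5.36 ± 0.14, adjusted p = 2.05e-10). The groups were far apart and the 3 DACTPL values nearly equal. IGF2, the growth factor gene beside it, went from 0.155, 0.266 and 0.361 CPM to 0.537, 1.21 and 0.896 CPM (log2 1.69 ± 0.40, adjusted p = 0.0176), a call that was lost without TPL replicate 1, TPL replicate 2 or DACTPL replicate 2. IGF2 was too low in TPL to pass the filter there and entered the test through higher groups. The promoter window of H19, at chr11:2001217-2001516 on the minus strand, is given with its 6 CG in capitals.
H19: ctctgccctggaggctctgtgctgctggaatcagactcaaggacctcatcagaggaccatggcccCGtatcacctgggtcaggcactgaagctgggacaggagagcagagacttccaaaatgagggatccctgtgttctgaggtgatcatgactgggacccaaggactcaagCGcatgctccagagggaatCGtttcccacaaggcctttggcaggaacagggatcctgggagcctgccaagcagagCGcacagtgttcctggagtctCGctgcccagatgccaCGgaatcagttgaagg

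Of 24 tested imprinted genes, 6 were higher and 0 lower (7 and 2 at an unadjusted p below 0.05; 6 and 0 with DESeq2), and the median log2 fold change was 0.02. PEG10, a retrotransposon-derived gene expressed from the paternal allele, was abundant and stood at 122, 112 and 126 CPM in TPL and 165, 222 and 185 CPM in DACTPL (log2 0.67 ± 0.09, adjusted p = 0.000499). PLAGL1, a zinc finger transcription factor, rose from 7.23 ± 0.331 to 10.9 ± 1.44 CPM (SD, n = 3), and DIRAS3, a small GTPase, from 1.08 ± 0.383 to 3.10 ± 0.312 CPM. MKRN3, from the Prader-Willi region, had no count in TPL and 0.303, 0.529 and 0.32 CPM in DACTPL (at least 3.67-fold). The rises were those of 6 members (25%, beside 6.93% of all genes), while the list's median was close to that of all genes. With a filter at 1 CPM, 4 were higher and 0 lower.

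Interferon-stimulated genes had the highest share of called rises of any list with 10 or more tested members, the germline lists aside. Of 70 tested effectors, 42 were higher (60%) and 1 was lower, beside 6.93% and 3.59% of all genes. Their median log2 fold change was 0.56 beside 0.01 for all genes, and 63 of the 70 lay above 0. Summed over the list, the level was 2118, 2137 and 2539 CPM in the TPL libraries and 3183, 3225 and 3202 CPM in the DACTPL libraries. The groups did not overlap, and TPL replicate 3 was the highest of its group. Leaving out 1 library at a time gave between 28 higher (without TPL replicate 2) and 49 higher (without TPL replicate 3). With a filter at 1 CPM, 36 were higher and 1 lower.

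IFI27, a mitochondrial and nuclear protein that is among the most inducible interferon targets, stood at 0.426, 0.598 and 0.559 CPM in TPL and 19.8, 16.6 and 14.4 CPM in DACTPL, 31.7-fold higher (log2 4.99 ± 0.16, adjusted p = 1.01e-09). BST2 (tetherin), which holds budding virus at the cell surface, stood at 0.116, 0.332 and 0.263 CPM in TPL and 1.80, 1.74 and 1.63 CPM in DACTPL (log2 2.82 ± 0.30, adjusted p = 5.89e-05). For both genes the lowest DACTPL library was several times the highest TPL library. IFI44L, a negative regulator of the interferon response, stood at 0.0387, 0.0332 and 0.296 CPM in TPL, where replicate 3 was well above the other TPL libraries, and at 1.24, 1.31 and 1.09 CPM in DACTPL (log2 3.22 ± 0.52, adjusted p = 0.00166). In TPL, BST2 and IFI44L were too low to pass the filter. They entered the test through groups in which they were higher, so their calls are given as a description.

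Other effectors rose from a higher level. OASL, an oligoadenylate synthetase-like protein that enhances RIG-I signalling, stood at 16.7, 16.5 and 21.2 CPM in TPL and 97.6, 88.0 and 89.2 CPM in DACTPL (log2 2.33 ± 0.11, adjusted p = 2.23e-08). IFIT3, which binds IFIT1 in the complex that recognises foreign RNA caps, stood at 14.2, 14.1 and 17.0 CPM and 74.5, 67.8 and 68.5 CPM (log2 2.22 ± 0.08, adjusted p = 3.74e-09). ISG15, a ubiquitin-like modifier, stood at 18.8, 18.4 and 22.8 CPM and 69.9, 67.7 and 63.4 CPM (log2 1.74 ± 0.11, adjusted p = 3.29e-07). None of the 3 genes had overlapping groups, and in each the TPL value of replicate 3 was the highest of its group. MX1, a GTPase that blocks viral replication, rose from 12.7 ± 1.88 to 33.4 ± 0.88 CPM (SD, n = 3), and DDX60, a helicase of RNA sensing, from 14.9 ± 5.03 to 75.9 ± 3.11 CPM. OAS3 (from 46.8 ± 12.6 to 92.7 ± 7.47 CPM) and LGALS3BP (from 41.4 ± 17.2 to 108 ± 2.79 CPM) had the highest TPL value in replicate 3, and both calls were lost without TPL replicate 2, that of OAS3 also without TPL replicate 1. The exception was IFITM2, an inhibitor of virus entry, which fell from 30.1 ± 1.64 to 23.2 ± 2.19 CPM (adjusted p = 0.0158), a call lost without DACTPL replicate 2 or 3. Its call was also lost on both TPM scales and with the length offset, with or without a replicate block.

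The promoters of interferon effectors are shown for the letters GAAA, any 2 bases and GAAA again (TTTC, any 2 bases and TTTC where the match is on the other strand), the core of the element bound by the interferon-stimulated complex ISGF3. Of 27305 RefSeq windows of the same length, 3.65% hold it on either strand. The windows below each hold it 2 times, in capitals, and in BST2 the 2 matches overlap. These genes were picked by name and not by a rule, so their matches give no share for the effectors. They lie at chr14:94110486-94110785 (IFI27, plus strand), chr1:78620198-78620497 (IFI44L, plus), chr19:17405581-17405880 (BST2, minus) and chr10:89327747-89328046 (IFIT3, plus). For IFI27 and IFIT3, which each have 2 windows listed, the first is printed. The IFI44L window has 0 CG, BST2 has 2, IFI27 has 4 and IFIT3 has 5. Windows were found for 33 of the 42 effectors called higher (78.6%) and for 77.1% of all tested genes, under the 80% set for comparing a sequence property over a set, so no share was compared between sets.
IFI27: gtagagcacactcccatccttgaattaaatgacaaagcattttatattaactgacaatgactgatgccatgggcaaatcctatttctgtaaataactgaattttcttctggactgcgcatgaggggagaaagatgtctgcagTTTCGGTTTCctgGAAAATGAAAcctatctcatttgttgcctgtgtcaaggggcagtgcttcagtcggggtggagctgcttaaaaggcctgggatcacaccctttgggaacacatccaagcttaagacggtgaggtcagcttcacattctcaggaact
IFI44L: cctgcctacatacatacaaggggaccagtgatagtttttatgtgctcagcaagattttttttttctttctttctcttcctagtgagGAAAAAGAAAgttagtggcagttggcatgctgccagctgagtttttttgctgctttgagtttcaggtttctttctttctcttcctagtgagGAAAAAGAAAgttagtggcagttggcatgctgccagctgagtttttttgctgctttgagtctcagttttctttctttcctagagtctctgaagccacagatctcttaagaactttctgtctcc
BST2: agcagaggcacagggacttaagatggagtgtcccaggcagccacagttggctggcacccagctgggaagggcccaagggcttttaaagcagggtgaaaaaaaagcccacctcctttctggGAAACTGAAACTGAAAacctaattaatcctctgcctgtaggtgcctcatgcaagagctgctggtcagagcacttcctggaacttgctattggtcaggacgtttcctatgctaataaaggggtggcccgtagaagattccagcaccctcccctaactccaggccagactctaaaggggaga
IFIT3: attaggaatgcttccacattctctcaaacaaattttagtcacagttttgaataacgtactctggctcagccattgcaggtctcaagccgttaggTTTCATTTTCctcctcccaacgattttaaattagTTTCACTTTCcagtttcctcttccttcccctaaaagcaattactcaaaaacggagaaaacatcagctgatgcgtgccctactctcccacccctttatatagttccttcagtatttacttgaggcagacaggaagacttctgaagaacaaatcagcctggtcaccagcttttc

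Upstream of the effectors, 9 of 30 tested genes of nucleic acid sensing and interferon signalling were higher and 0 lower (9 and 1 at an unadjusted p below 0.05; 9 and 0 with DESeq2). DDX58, which encodes the RNA sensor RIG-I, stood at 23.2, 22.1 and 23.5 CPM in TPL and 42.4, 39.6 and 41.3 CPM in DACTPL (log2 0.84 ± 0.07, adjusted p = 5.76e-06). DHX58, which encodes the related regulator LGP2, stood at 1.47, 1.83 and 1.84 CPM and 7.70, 6.82 and 6.72 CPM (log2 2.04 ± 0.12, adjusted p = 2.2e-07). Both sets of libraries were apart by more than their spread. The sensor MDA5, encoded by IFIH1, gave a log2 fold change of 0.57 ± 0.07 (adjusted p = 0.000301). Of the transcription factors of the response, the fit gave log2 fold changes of 0.89 for IRF7 and 0.55 for IRF9, with adjusted p-values of 0.000341 and 0.00252. The median over the 30 genes was 0.05, and 21 of them were not called. The 9 rises were 30% of the list, beside 6.93% of all genes.

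Of 23 tested genes of MHC class I presentation, 2 were higher (8.7%, close to the 6.93% of all genes) and 0 lower (5 and 0 at an unadjusted p below 0.05; 3 and 0 with DESeq2). NLRC5, the class I transactivator, stood at 13.2, 12.4 and 17.7 CPM in TPL and 18.5, 19.8 and 18.8 CPM in DACTPL (log2 0.40 ± 0.11, adjusted p = 0.0351). Its call was lost on leaving out any of the 6 libraries except TPL replicate 3. Of the list, no gene was called without TPL replicate 1, TPL replicate 2, DACTPL replicate 1 or DACTPL replicate 3, and 4 were higher without TPL replicate 3. In DAC vs Ctrl, 8 of the 23 were higher. Of 23 tested NF-kB and cytokine genes, 4 were higher (17.4%) and 0 lower, beside 6.93% and 3.59% of all genes. At an unadjusted p below 0.05 there were 10 and 2, and with DESeq2 3 and 1. CCL5, a T cell chemokine that interferon signalling also induces, stood at 7.08, 4.98 and 7.69 CPM and 12.9, 13.8 and 11 CPM (log2 0.93 ± 0.14, adjusted p = 0.000923). CXCL1, a neutrophil chemokine, gave 0.52 (adjusted p = 0.00881, lost without TPL replicate 1). Without that library 1 gene of the list was higher, and without TPL replicate 2 or DACTPL replicate 2, 2 were.

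**Figure D3:**
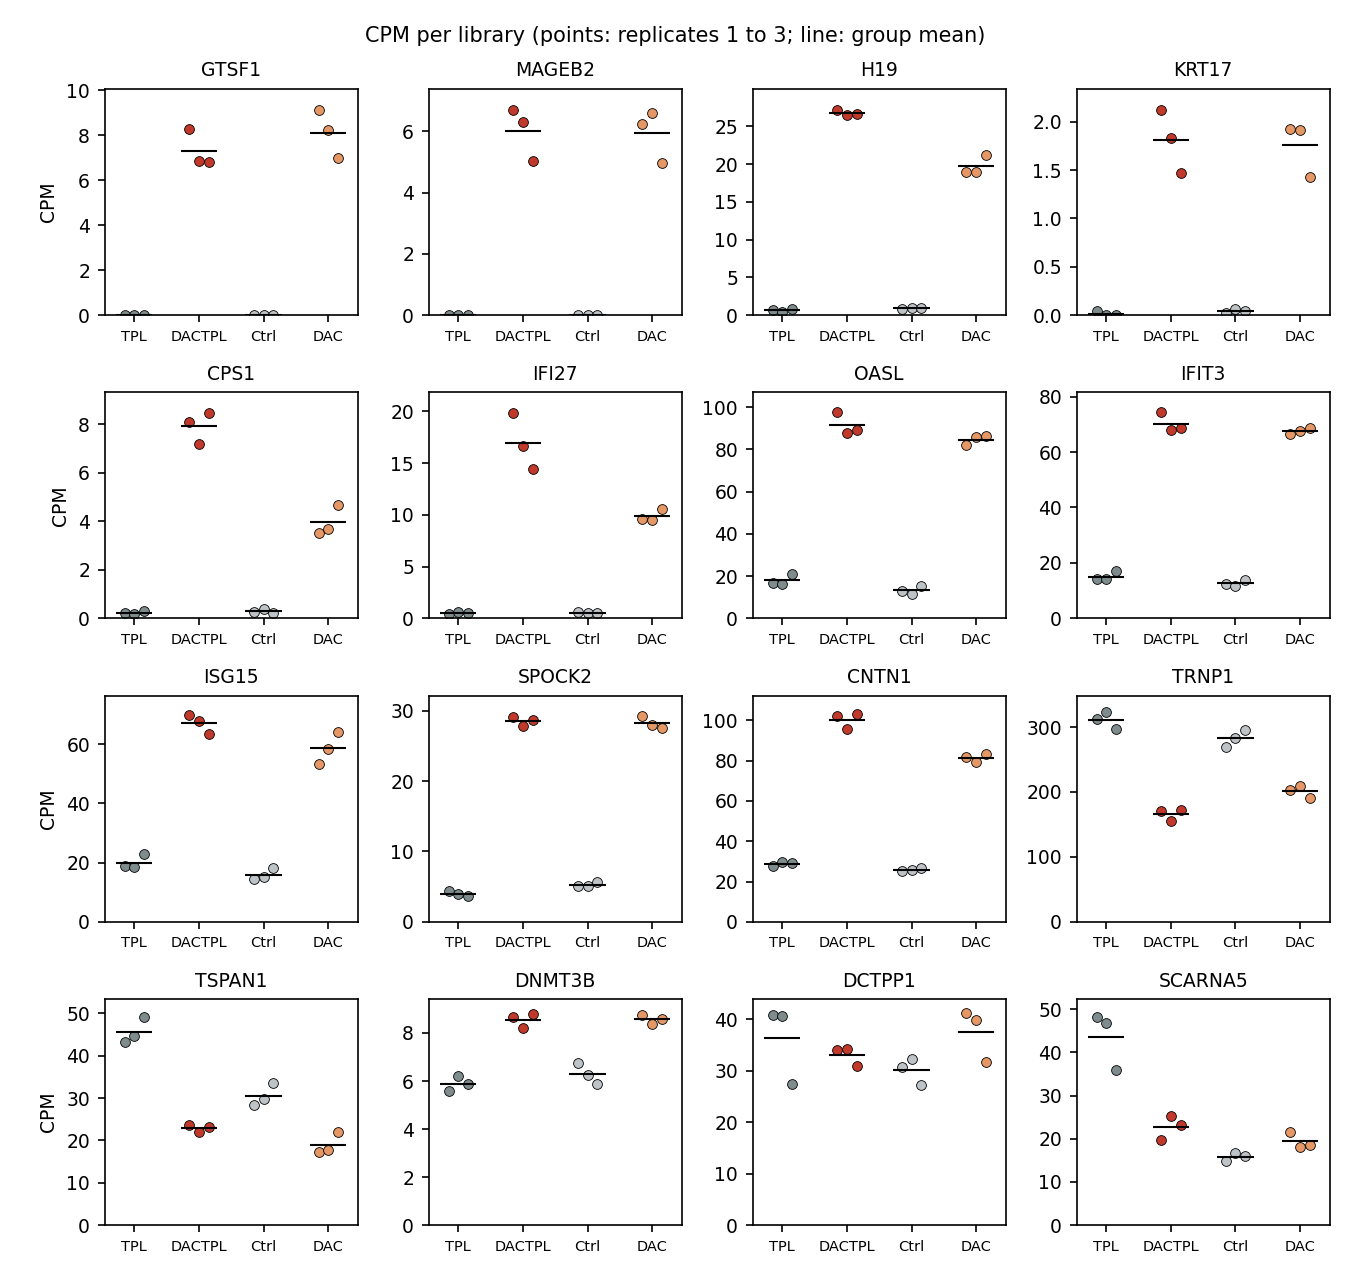
Points are the CPM of each library and lines the group means, for 16 genes in TPL, DACTPL, Ctrl and DAC. In GTSF1, MAGEB2, H19, CPS1, IFI27, OASL, IFIT3, ISG15, SPOCK2 and CNTN1 the DACTPL and DAC points lie above the TPL and Ctrl points, in TRNP1 and TSPAN1 below them, and in DCTPP1 the groups overlap. For SCARNA5 the TPL points stand above all the others.

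Outside these classes, the largest rises included liver enzymes and an epithelial transcription factor. CPS1, the urea cycle enzyme carbamoyl phosphate synthetase of liver, stood at 0.232, 0.199 and 0.296 CPM in TPL and 8.10, 7.19 and 8.45 CPM in DACTPL, 32.1-fold higher (log2 5.00 ± 0.22, adjusted p = 1.34e-08). Its mean in DAC was 3.97 CPM, below all DACTPL libraries, but its interaction was not called (log2 1.17, adjusted p = 0.214). HPD, a liver enzyme of tyrosine breakdown, stood at 0.0387, 0.0332 and 0.0986 CPM and 5.81, 4.92 and 4.22 CPM, 81.6-fold higher (adjusted p = 2.11e-08). EHF, an epithelial ETS factor, stood at 0.0774, 0.133 and 0.131 CPM and 3.57, 3.46 and 4.45 CPM (log2 5.00 ± 0.36, adjusted p = 1.55e-06). In all 3 genes the groups were separate by a wide margin, but CPS1, HPD and EHF had 21, 5 and 10 counts in all of TPL. They entered the test through the decitabine groups, so their calls are given as a description.

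The rises named by size also held secreted and surface proteins. SRGN, the proteoglycan serglycin, stood at 1.35, 1.86 and 1.81 CPM in TPL and 21.0, 19.1 and 18.6 CPM in DACTPL (log2 3.53 ± 0.13, adjusted p = 2.95e-09). SPP1 (osteopontin) rose from 0.249 ± 0.127 to 3.97 ± 0.378 CPM, CHI3L1, a secreted chitinase-like protein, from 0.309 ± 0.0677 to 4.58 ± 0.434 CPM and S100P, a calcium-binding protein, from 0.513 ± 0.0752 to 7.81 ± 0.808 CPM (SD, n = 3). CSF3R, the receptor of granulocyte colony-stimulating factor, stood at 0.0387, 0.133 and 0.427 CPM and 4.27, 3.86 and 4.77 CPM (log2 4.35 ± 0.50, adjusted p = 0.00019). SPP1, CHI3L1 and CSF3R, with 22, 27 and 18 counts in all of TPL, likewise entered the test through the decitabine groups. The mucins MUC5B and MUC4 were far less even. MUC5B stood at 0.467, 1.62 and 0.928 CPM in DACTPL on 1 count in all of TPL, a ratio of 82.1 with a 95% counting interval of 14.4 to 3275, and MUC4 at 0.257, 1.93 and 1.09 CPM on 4 counts in TPL. In both mucins DACTPL replicate 2 was the highest and replicate 1 the lowest, and the MUC4 call was lost without DACTPL replicate 2, TPL replicate 1 or TPL replicate 2. All intervals and floors cover counting error only.

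A further 6 rises were chosen after their values had been seen, for their precision at levels that TPL cells already had. SPOCK2, a secreted proteoglycan, stood at 4.37, 3.95 and 3.61 CPM in TPL and 29.1, 27.9 and 28.6 CPM in DACTPL (log2 2.85 ± 0.08, adjusted p = 2.05e-10). CNTN1, a neural adhesion molecule, stood at 27.6, 29.9 and 29.1 CPM and 102, 95.8 and 103 CPM (log2 1.80 ± 0.05, adjusted p = 3.93e-10). Within either group the libraries differed little beside the gap. PDK4, a kinase that inhibits pyruvate dehydrogenase, rose from 7.23 ± 1.2 to 40.9 ± 1.96 CPM and ABCC2, a drug and conjugate export pump, from 7.63 ± 0.624 to 27.7 ± 1.92 CPM. ALDH3A1, an aldehyde dehydrogenase, rose from 1.55 ± 0.242 to 14.0 ± 1.42 CPM and CYP24A1, which inactivates vitamin D, from 79.0 ± 6.60 to 181 ± 2.11 CPM. All 6 kept their call under every alternative tried.

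Among genes reported as hypermethylated in prostate tumours, 5 of 33 tested were higher and 2 lower. These were 15.2% and 6.06%, beside 6.93% and 3.59% of all genes. TFPI2, an inhibitor of serine proteases and matrix breakdown, stood at 21.9, 23.1 and 17.6 CPM in TPL and 89.9, 83.9 and 80.2 CPM in DACTPL (log2 2.02 ± 0.12, adjusted p = 4e-07). GSTP1, the glutathione transferase most often silenced by methylation in prostate cancer, was already at 63.7, 65.1 and 63.9 CPM in TPL and stood at 80.8, 71.5 and 74.8 CPM in DACTPL (log2 0.24 ± 0.05, adjusted p = 0.011, lost without TPL replicate 1 or DACTPL replicate 1). CDKN2A, which encodes p16, fell from 150.1 ± 16.1 to 117 ± 9.03 CPM, a call lost without TPL replicate 1, TPL replicate 2, DACTPL replicate 2 or DACTPL replicate 3. The list's median log2 fold change was 0.06. Without TPL replicate 1 or DACTPL replicate 2 the counts were 2 higher and 0 lower, without TPL replicate 2 they were 2 and 1, without DACTPL replicate 3 they were 3 and 0, and without TPL replicate 3 they were 6 and 5.

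Some markers of both epithelial and mesenchymal cells rose. Of 39 tested epithelial genes, 9 were higher (23.1%) and 4 lower (10.3%), with a median log2 of 0.11. Of 32 mesenchymal genes, 10 were higher (31.25%) and 0 lower, with a median of 0.28. At an unadjusted p below 0.05 the mesenchymal counts were 14 and 4, and with DESeq2 10 and 2. Over all genes 6.93% were higher and 3.59% lower. KRT13 had 0 counts in TPL and RAB25 and COL1A2 had 3 each, so these entered the test through higher groups. With a filter at 1 CPM, 6 epithelial genes were higher and 4 lower, and 6 and 0 mesenchymal genes. KRT17, a basal keratin, had 1 count in all of TPL and stood at 2.12, 1.84 and 1.47 CPM in DACTPL, a ratio of 159 with a counting interval of 28.3 to 6326. KRT81, a hair keratin, stood at 42.5, 40.3 and 30.5 CPM in TPL and 93.4, 104 and 77.0 CPM in DACTPL (log2 1.28 ± 0.16, adjusted p = 0.000361). EPCAM, an epithelial adhesion molecule, fell from 142 ± 3.37 to 115 ± 4.97 CPM (log2 -0.30, adjusted p = 0.00186), and ESRP1, an epithelial splicing factor, gave -0.30 (adjusted p = 0.0143, lost without TPL replicate 1 or DACTPL replicate 3). The calls of EPCAM and ESRP1 were also lost on both TPM scales. S100A4, a calcium-binding protein of motile cells, stood at 8.01, 8.31 and 8.57 CPM and 25.3, 22.4 and 25.3 CPM (log2 1.55 ± 0.11, adjusted p = 1.86e-06). The basement membrane collagen COL4A1 rose from 37.0 ± 1.75 to 53.8 ± 1.75 CPM and COL4A2 from 86.6 ± 7.11 to 124 ± 7.19 CPM (SD, n = 3). Without TPL replicate 3 the mesenchymal counts were 13 higher and 5 lower, and without TPL replicate 1 they were 6 and 0. The epithelial falls numbered 8 without TPL replicate 3, 2 without DACTPL replicate 2 and 1 without TPL replicate 1 or DACTPL replicate 3. Of the markers of other cell types, the endothelial cadherin gene CDH5 rose from 0.32 to 2.27 CPM and stromal COL1A2 from 3 counts to 43, while the fibroblast marker DCN had at most 0.0329 CPM in any of the 6 libraries. The 3 tested endothelial markers (PECAM1, CDH5, KDR) summed to 0.813 to 1.81 CPM in TPL and 3.87 to 4.67 CPM in DACTPL. Of these, 2 were called higher. VWF, an endothelial marker that was not tested, went the other way. It stood at 0.232, 0.166 and 0.296 CPM in TPL and 0.117, 0.0623 and 0.16 CPM in DACTPL. Of 8 stromal markers, the 3 tested summed to 7.94 to 11.8 CPM in TPL and 12.5 to 14.5 CPM in DACTPL. Of 9 blood and macrophage markers, the 4 tested summed to 39.6 to 49.7 CPM and 34.8 to 36.1 CPM. The part of these markers in the mesenchymal rise was not tested, and in RNA from whole cultures fewer cells of a type and less RNA per cell cannot be told apart.

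**Figure D4:**
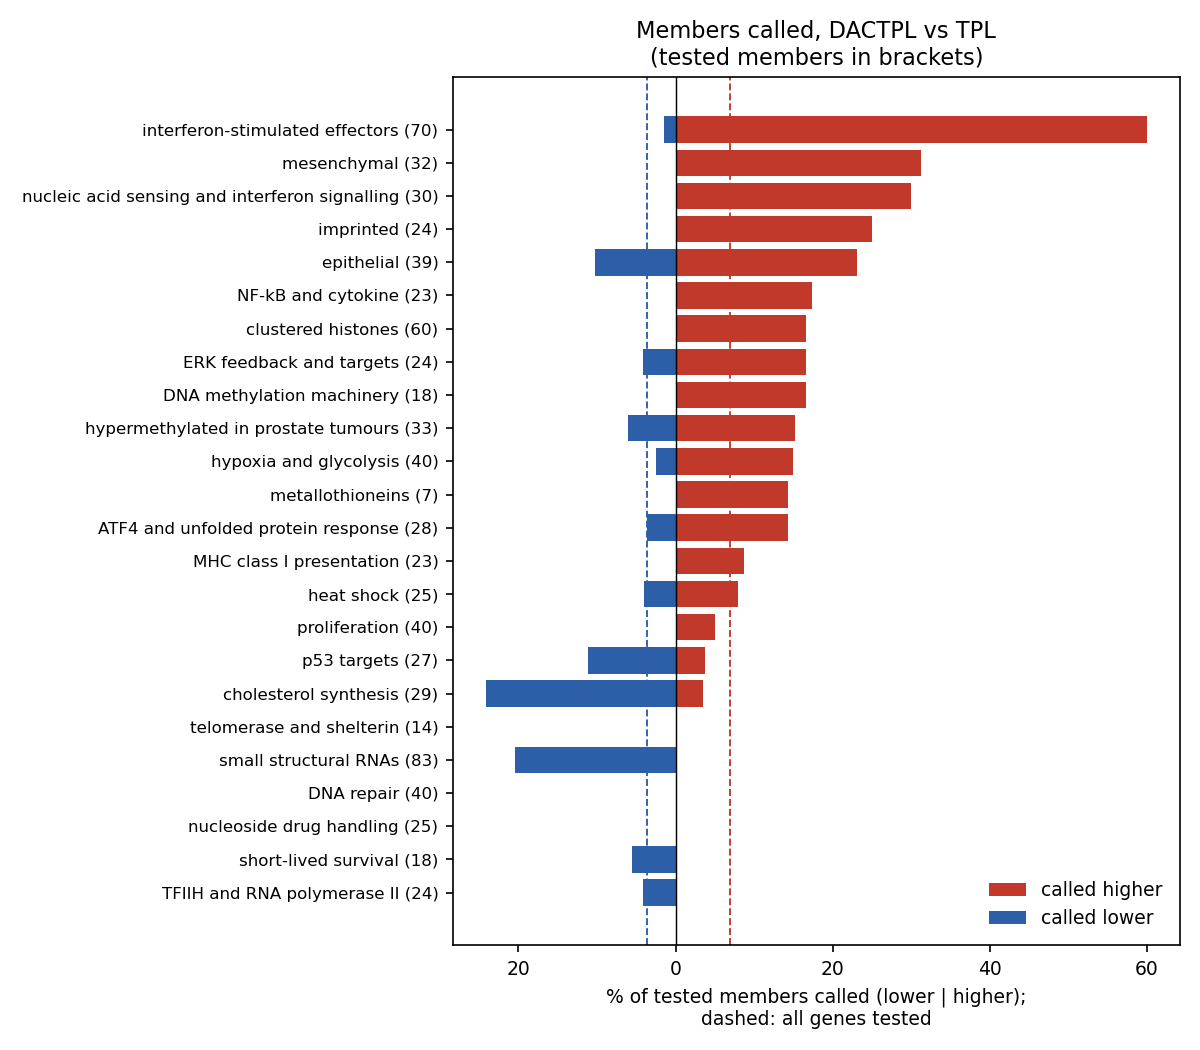
Bars give the percentage of tested members of each list called higher (red, right) or lower (blue, left) in DACTPL against TPL, with the number tested in brackets, and dashed lines mark 6.93% and 3.59% for all genes. Interferon-stimulated effectors (60%) reach farthest to the right, cholesterol synthesis (24.1%) and small structural RNAs (20.5%) farthest to the left. The cancer-testis, piRNA and meiosis lists are left out because members with few or no counts in TPL were tested only through the groups in which they were high. Lists shown also hold a few members of this kind, such as KRT13 (0 counts in TPL), KRT17 (1) and COL1A2 (3).

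Most falls were shallow, and genes of surface proteins were among them. TSPAN1, a tetraspanin, stood at 43.3, 44.7 and 49.2 CPM in TPL and 23.8, 22.1 and 23.3 CPM in DACTPL, 1.98-fold lower (log2 -0.99 ± 0.10, adjusted p = 2.45e-05). CSF2RA, the receptor subunit for granulocyte-macrophage colony-stimulating factor, stood at 8.90, 8.94 and 7.36 CPM and 4.15, 4.02 and 4.06 CPM (log2 -1.04 ± 0.12, adjusted p = 9.15e-05). IL17RE, a subunit of the interleukin-17C receptor, stood at 3.33, 3.82 and 4.73 CPM and 1.75, 1.53 and 1.86 CPM (log2 -1.21 ± 0.16, adjusted p = 0.00042). In these 3 genes every DACTPL library was below every TPL library. HP, the haemoglobin-binding protein haptoglobin, had the deepest named fall, from 3.72, 3.75 and 6.96 CPM to 0.933, 0.654 and 0.864 CPM (log2 -2.55 ± 0.52, adjusted p = 0.0101), with TPL replicate 3 well above the other TPL libraries. TMC4, a transmembrane channel-like protein, fell from 17.0, 14.5 and 25.3 CPM to 7.37, 7.69 and 9.06 CPM (adjusted p = 0.0121) with the same replicate highest, and IL1RL1, the interleukin-33 receptor, from 18.8, 20.6 and 9.72 CPM to 7.21, 7.53 and 6.46 CPM (adjusted p = 0.0109) with that replicate lowest.

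A further 5 falls were chosen after their values had been seen, for their high level. TRNP1, a nuclear regulator of cortical progenitor growth in mouse, stood at 312, 323 and 298 CPM in TPL and 171, 155 and 172 CPM in DACTPL (log2 -0.91 ± 0.06, adjusted p = 1.11e-06). The adhesion molecule ALCAM (CD166) fell from 451 ± 12.3 to 314 ± 17.5 CPM, P-cadherin (CDH3) from 543 ± 6.89 to 399.6 ± 16.8 CPM and the surface glycoprotein CD24 from 817 ± 18.4 to 612 ± 29.2 CPM (SD, n = 3). PLAU, the urokinase plasminogen activator, fell from 949 ± 135 to 648 ± 23.8 CPM, with adjusted p-values of 6.35e-05 for ALCAM, 0.000383 for CDH3, 0.000427 for CD24 and 0.00232 for PLAU. All 5 kept their call under every alternative tried.

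Cholesterol synthesis genes fell more often than they rose. Of 29 tested genes, 7 were lower (24.1%) and 1 higher (3.45%), beside 3.59% and 6.93% of all genes. The median log2 fold change was -0.16, beside 0.01 for all genes, and 23 members lay below 0. EBP, a sterol isomerase, stood at 70.8, 70.5 and 66.1 CPM in TPL and 55.2, 49.6 and 54.4 CPM in DACTPL (log2 -0.38 ± 0.07, adjusted p = 0.00361). FDPS, which makes farnesyl diphosphate, stood at 424, 438 and 370.0 CPM and 326, 289 and 333 CPM (log2 -0.38 ± 0.08, adjusted p = 0.0081). The falls were within 1.5-fold and depended on the libraries and the scale. Without TPL replicate 1, 2 genes were lower, with the 6 libraries alone 1 was, without TPL replicate 2 or DACTPL replicate 2, 3 were, and on log2(TPM + 1) the median was 0.05 and the 7 falls were not called.

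Small structural RNAs, the guide RNAs that direct modification of ribosomal and spliceosomal RNA among them, were lower. Of 83 tested, 17 were lower (20.5%) and 0 higher, beside 3.59% and 6.93% of all genes. At an unadjusted p below 0.05 there were 39 and 1, and with DESeq2 19 and 0. The median log2 fold change was -0.43, and 71 lay below 0. SCARNA5, a guide RNA of Cajal bodies, stood at 48.2, 46.8 and 36.0 CPM in TPL and 19.6, 25.2 and 23.2 CPM in DACTPL (log2 -0.95 ± 0.12, adjusted p = 0.000269). RPPH1 fell from 27465 ± 5013 to 17882 ± 1333 CPM (SD, n = 3; adjusted p = 0.00657), a call lost on both TPM scales. In these genes the group that stood apart was TPL. Ctrl and DAC means were 15.8 and 19.4 CPM for SCARNA5 and 11290.1 and 15998 CPM for RPPH1, and the class took 4.12% ± 0.64 of counts in TPL, 3.11% ± 0.25 in DACTPL, 2.83% ± 0.09 in DAC and 2.20% ± 0.14 in Ctrl (SD, n = 3). In DAC vs Ctrl, 4 of the 83 were called, each of them higher, and the median log2 was 0.14. Across 14128 coding genes the log2 fold change of DACTPL over TPL ran with gene length at a Spearman correlation of 0.27, given as a description since genes share libraries. The part of gene length or RNA recovery in these falls was not tested, but with each library's length trend removed 11 were lower. Without TPL replicate 3, 35 were lower, and without TPL replicate 1, TPL replicate 2, DACTPL replicate 1 or DACTPL replicate 3 the count was 8 or 9.

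DCTPP1, DCK and ERCC3, the genes nearest to the drugs of the study, did not pass the test. DCTPP1 stood at 40.9, 40.6 and 27.4 CPM in TPL and 34.1, 34.2 and 30.9 CPM in DACTPL, and the groups overlapped (log2 -0.13 ± 0.14, adjusted p = 0.594). TPL replicate 3 was the lowest of the 6 libraries. DCK gave 0.02 ± 0.13 (adjusted p = 0.95). None of 25 tested genes of nucleoside drug handling was called, with 1 higher and 1 lower at an unadjusted p below 0.05 and 0 called with DESeq2, although without TPL replicate 3, 7 were lower and 1 higher. ERCC3, the target of triptolide, stood at 41.7, 42.2 and 39.7 CPM and 38.8, 36.4 and 36.7 CPM (log2 -0.14 ± 0.05, adjusted p = 0.112). Of 24 tested genes of TFIIH and RNA polymerase II, MNAT1, a subunit of the TFIIH kinase, was lower (log2 -0.26, adjusted p = 0.0453, lost without TPL replicate 1, TPL replicate 2, DACTPL replicate 2 or DACTPL replicate 3). Without TPL replicate 3, 7 were lower.

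Of the DNA methylation machinery, 3 of 18 tested genes were higher (16.7%) and 0 lower, beside 6.93% and 3.59% of all genes. At an unadjusted p below 0.05 there were 6 and 1, and with DESeq2 3 and 0. DNMT3B, a de novo methyltransferase, stood at 5.57, 6.21 and 5.88 CPM in TPL and 8.66, 8.22 and 8.80 CPM in DACTPL (log2 0.54 ± 0.08, adjusted p = 0.000956), and the groups did not overlap. UHRF1, which brings DNMT1 to newly replicated DNA, gave 0.25 (adjusted p = 0.0166, lost without TPL replicate 2, DACTPL replicate 1 or DACTPL replicate 2), and TDG, a glycosylase that acts in demethylation, gave 0.22 (adjusted p = 0.0108, lost without TPL replicate 1 or 2). DNMT1, the maintenance enzyme, stood at 213, 205 and 225 CPM and 227, 248 and 237 CPM (log2 0.14 ± 0.06, adjusted p = 0.122), and DNMT3A gave 0.00 ± 0.10 (adjusted p = 0.986).

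For growth, repair and stress lists the shares over all genes were again 6.93% higher and 3.59% lower. Of 40 proliferation genes, 2 were higher, and of 40 DNA repair genes 0 were called (3 higher and 7 lower at an unadjusted p below 0.05; 0 with DESeq2), though without TPL replicate 3, 8 repair genes were lower. Of 27 tested p53 targets, 1 was higher and 3 lower, GADD45A, a growth arrest gene, among the latter (18.9 ± 0.571 to 14.3 ± 0.716 CPM). Heat shock genes gave 2 higher and 1 lower of 25, ATF4 and unfolded protein response genes 4 and 1 of 28, and hypoxia and glycolysis genes 6 and 1 of 40 (15% and 2.5%). Without TPL replicate 3, 6 of the ATF4 list were lower. SLC7A5, an amino acid transporter driven by ATF4, stood at 262, 260.4 and 218 CPM and 418, 433 and 375 CPM (log2 0.73 ± 0.09, adjusted p = 0.000151). SLC2A3, the glucose transporter GLUT3, rose from 1.48 ± 0.14 to 8.12 ± 0.549 CPM and ALDOC, aldolase C, from 1.41 ± 0.133 to 13.8 ± 1.85 CPM. Of 18 tested short-lived survival genes 1 was called. MCL1, a short-lived survival protein whose transcript triptolide is known to lower, fell from 779.6 ± 20.5 to 643 ± 19.9 CPM (log2 -0.28, adjusted p = 0.00454, lost on TPM).

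ERK signalling genes gave 4 higher and 1 lower of 24 (16.7% and 4.17%, beside 6.93% and 3.59% of all genes). MAPK4, an atypical kinase of the ERK family, stood at 2.01, 1.5 and 2.00 CPM in TPL and 5.32, 4.98 and 4.99 CPM in DACTPL (log2 1.48 ± 0.15, adjusted p = 4.08e-05). DUSP4, a phosphatase that switches off nuclear ERK, stood at 71.6, 73.4 and 66.9 CPM and 127, 123 and 125 CPM (log2 0.83 ± 0.05, adjusted p = 7.17e-07). FOSL1, an AP-1 subunit induced by ERK, stood at 77.3, 72.3 and 52.4 CPM and 43.0, 40.2 and 38.5 CPM (log2 -0.73 ± 0.14, adjusted p = 0.00598). The phosphatase gene DUSP5 gave -0.17 ± 0.06 (adjusted p = 0.0921) and the smooth muscle gene TAGLN -0.06 ± 0.09 (adjusted p = 0.741).

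Clustered histone genes, whose transcripts lack a poly(A) tail and are seen in total RNA, gave 10 higher and 0 lower of 60 tested (13 and 3 at an unadjusted p below 0.05; 10 and 1 with DESeq2), with a median of 0.03. The 10 rises were 16.7% of the list, beside 6.93% of all genes, and with a filter at 1 CPM 7 were higher. With each library's length trend removed 19 were higher, and 22 with a replicate block as well. HIST1H1T, the testis linker histone, stood at 0.31, 0.166 and 0.46 CPM in TPL and 1.73, 1.49 and 1.63 CPM in DACTPL (log2 2.36 ± 0.28, adjusted p = 0.000147), and HIST1H1A, another linker histone, had no count in TPL and 0.583, 0.841 and 0.704 CPM in DACTPL (at least 6.77-fold). Both were too low in TPL to pass the filter there and entered the test through higher groups. The list's sum was 6142, 6214 and 4969 CPM in the TPL libraries and 6050, 5635 and 5521 CPM in the DACTPL libraries, with TPL replicate 3 the lowest of the 6. Without that library 14 histone genes were lower and 10 higher, and in DAC vs Ctrl 28 were higher.

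Set beside the decitabine response without triptolide, many of the rises were called in both contrasts. The decitabine dose of DACTPL was not settled (33 or 3 nM), so the contrasts may differ in dose as well as in triptolide. In DAC vs Ctrl 996 genes were higher (6.27%) and 570 lower (3.59%), 1566 in all (9.86%). The overlap with DACTPL vs TPL was 627 rises, which is 56.9% of the 1101 and 63.0% of the 996, and 162 falls, which is 28.4% of either list. Opposite calls were 3 among the 1101 and 4 among the 570. Of the 1101 genes higher in DACTPL, 93.8% had a log2 fold change above 0 in DAC vs Ctrl, with a median of 0.51 there beside 0.74 in DACTPL vs TPL. Of the 570 lower genes 80.2% lay below 0 in DAC vs Ctrl, with medians of -0.17 there and -0.34 in DACTPL vs TPL. A set chosen for its calls in one contrast has its size overstated there, and over all 15890 tested genes the Spearman correlation of the log2 fold changes of the contrasts was 0.27, given as a description across genes. Of the 996 genes higher in DAC vs Ctrl, the medians were 0.59 there and 0.58 in DACTPL vs TPL, and of its 570 lower genes -0.39 and -0.16. For the interferon effectors the medians were 0.56 in DACTPL vs TPL and 0.47 in DAC vs Ctrl, with 42 and 33 called higher.

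**Figure D5:**
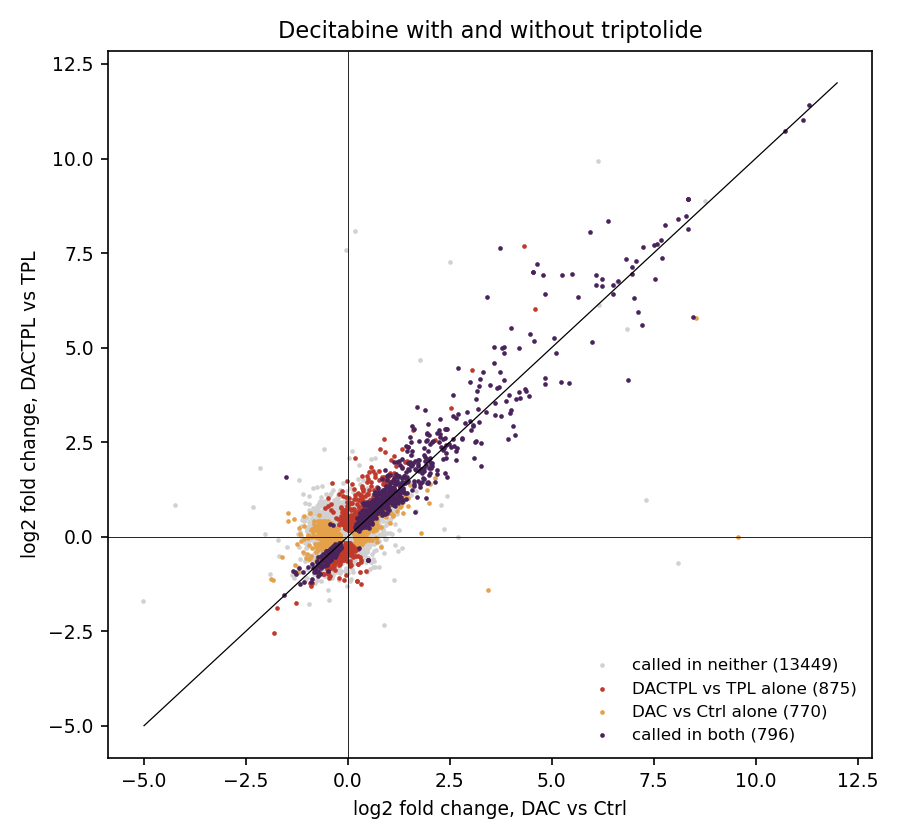
Each point is a tested gene, with its log2 fold change in DAC vs Ctrl on the horizontal axis and in DACTPL vs TPL on the vertical axis, and the diagonal marks equal change. The 796 genes called in both contrasts follow the diagonal out to the largest rises, while genes called in a single contrast mostly crowd near the origin.

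Whether the decitabine response differed with triptolide was tested as the interaction of the 12 libraries. If the combination had decitabine at 3 nM, a difference in dose cannot be told apart from triptolide here. It called 1 gene of 15890 (0.00629%), EYA4-AS1, and 2545 genes had an unadjusted p below 0.05, while DESeq2 called 125. This antisense gene stood at 15.6, 17.5 and 17.0 CPM in TPL and 18.9, 17.4 and 18.4 CPM in DACTPL, which overlapped, and at means of 25.6 CPM in Ctrl and 15.5 CPM in DAC. Its log2 fold change was 0.13 in DACTPL vs TPL and -0.72 in DAC vs Ctrl, an interaction of 0.85 ± 0.11 (adjusted p = 0.0391). The strand setting of the counting is not given in the sources used here, so its reads may not be separable from those of the sense gene. The interaction count rested on TPL replicate 3. Without it, 950 genes were called, 306 with a greater and 644 with a smaller log2 fold change beside triptolide, among them 39 of 60 clustered histones and 25 of 83 small structural RNAs on the smaller side and 0 of 70 interferon effectors on either side. Without DACTPL replicate 2 it called 9 genes, and without Ctrl replicate 3, 14.

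The authors' deposited table of the same comparison gives 1136 genes higher and 767 lower at an adjusted p below 0.05. Of the edgeR calls, 1003 rises (91.1%) and 553 falls (97.0%) are also called there. The largest log2 fold change in the authors' deposited table is 3.92 and the deepest is -0.89, a narrower range than here, and GTSF1 stands at 2.86 there. A deposited list of 704 genes with z-scores, chosen on these samples, had 697 tested members, of which 541 were higher and 4 lower in DACTPL vs TPL, which is not independent evidence of their direction.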

How the data were processed

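RNA of DU145 cells was sequenced by the authors as stranded total RNA. Per the submitters' processing notes, RSEM 1.2.09, DESeq2, R 4.0.4 and the build hg19 were used. The deposited tables hold expected counts and TPM per gene for every library, and the authors' comparison table holds log2 fold changes with adjusted p-values. The authors' deposited gene list holds z-scores, a score of each gene over the samples whose making is not given in the sources used here, and their table a test statistic, also a score, from DESeq2.

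Expected counts were rounded (64.3% lay within 0.005 of a whole number) and tested with edgeR 4.0.16 in R 4.3.3: low-count filter by group, TMM scaling, robust quasi-likelihood fit over all 12 libraries, Benjamini-Hochberg adjustment over 15890 genes. CPM are counts scaled to library size after TMM, and errors of log2 fold changes are the estimate over the square root of F. Alternatives used DESeq2 1.42.0, limma 3.58.1 on log2(TPM + 1) and log2(TPM + 0.1), other filters, a length offset, a replicate block and leaving out libraries. On simulated data (15741 genes) the test recovered 22%, 76%, 90% and 98% of 50 genes each changed 1.25-, 1.5-, 2- and 4-fold, and 13 of 156 calls were of unchanged genes. The changed genes all had a mean of at least 1 CPM, and no simulated library stood apart as TPL replicate 3 did. The recovery therefore does not cover genes below that level or such a library.

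Gene lists and members were chosen with earlier results of these data known. Named genes are a selection from the 25 largest rises and 20 largest falls whose groups did not overlap and that reached 1 CPM, up to 8 called members per list, interaction calls and 10 genes tied to the study. CD14, CD68, CTCFL, ESRP1, IFIT3, IFITM2, ISG15, KRT18, LGALS3BP, LYZ, MX1, OAS3, OASL, REC8, RPPH1, TDRKH and the genes so described in the text were chosen after their values were seen. Some genes of the lists are not reported here by name.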

Additional observations from a re-analysis of the deposited data

Results flagged for a closer look

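EYA4-AS1 was singled out because its decitabine response differed with and without triptolide, by an interaction of 0.85 on the log2 scale (adjusted p = 0.0391, edgeR). The decitabine dose in the combination was not settled, so a difference in dose cannot be told apart from triptolide. This gene's call has further limits. EYA4-AS1 was the single gene of 15890 called for the interaction. Over all settings its interaction kept its sign and its adjusted p ran from 3.24e-07 (DESeq2) to 0.209 (without Ctrl replicate 1). The call was lost on leaving out any library except Ctrl replicate 3, TPL replicate 3 or DACTPL replicate 2.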

How the results depend on the processing

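Rises in DACTPL against TPL numbered 1101 and falls 570. With the 6 libraries of the comparison alone they were 589 and 195, which rests on fewer libraries for the spread. On TPM they were 5551 and 140 (pseudocount 1) and 5735 and 145 (pseudocount 0.1). Leaving out 1 library gave 650 to 1622 rises and 260 to 1663 falls. The count for DAC vs Ctrl, 1566, ranged from 753 to 1540 when 1 library was left out. The interaction count, 1, was 125 with DESeq2, 8 without a filter, 3 with the length offset, 5095 and 5123 on TPM, and 0 to 950 when 1 library was left out. It has no value for the 6 libraries alone. The main fit did not take replicate numbers as pairs. Same-numbered TPL and DACTPL libraries deviated together at r of 0.12, -0.18 and 0.18. These values leave out Ctrl and DAC, so they do not settle whether the replicate number was a shared factor. With a replicate block there were 1513 rises, 1066 falls and 2574 calls for DAC vs Ctrl, and with block and length offset together 1252 falls, 2566 calls for DAC vs Ctrl and 22 interaction calls. The causes were not tested. Of 202 named genes called, 120 kept their call under every alternative and 82 lost it in at least 1. DNAJB1, a heat shock co-chaperone called lower, reversed on TPM, to 0.0106 and 0.0107 on the log2 scale. In the simulated data 76% of changes of 1.5-fold were recovered at this depth, among genes of at least 1 CPM and with no library standing apart.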
